A study of Mus musculus with 8 samples.

Results

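SHP loss in the liver of leptin-intact mice was described as the difference between 2 SHP-/- arrays and 2 wild-type arrays, 4 of the 8 arrays of the series. All probe sets but the 64 control ones were used, 22626 in number, and they named 12393 genes singly. The series holds liver total RNA on Affymetrix mouse arrays from 4 genotypes in duplicate, all on a C57BL background and fed a standard chow. Wild-type mice carried no listed mutation, SHP-/- mice are labelled as a SHP knockout, OB-/- mice as a leptin knockout and OB-/-/SHP-/- mice as the double knockout. The leptin-null pair, OB-/-/SHP-/- minus OB-/-, is described beside the targeted gene and the genes that differed in leptin-intact mice. Array checks, neighbours of the targeted gene and macrophage markers also carry a few of its values. The leptin-null pair shares no array with the leptin-intact difference, but its arrays entered the estimate of spread on which the calls rest. Age, sex, the cells in which the genes were deleted, and whether an array held 1 animal or a pool are not given in the labels.

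SHP, the small heterodimer partner encoded by Nr0b2, is an orphan nuclear receptor that has a ligand-binding domain but no DNA-binding domain. It binds other receptors and recruits corepressors, which lowers transcription of their targets. In liver, bile acids activate the receptor FXR, FXR raises SHP, and SHP holds back LRH-1 and HNF4A at the genes of bile acid synthesis, above all Cyp7a1 and Cyp8b1. SHP is also known to act in lipid and glucose metabolism.

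In leptin-intact liver few genes passed the test for a difference with SHP loss, and bile acid synthesis genes were not among them. With so few arrays, a gene that did not pass is not shown to be unchanged, and this holds for bile acid synthesis too. Asns and Csad, enzymes of amino acid and taurine synthesis, rose 7.15-fold and 3.93-fold, and the imprinted noncoding RNAs Meg3 and Rian rose 2.75-fold and 2.77-fold. Dmbt1 and Serpina12 fell 7.03-fold and 4.06-fold, Dio1 fell 3.80-fold and Pparg fell 2.56-fold. Of the 12393 genes, 40 passed the test (0.323%), 28 upward (0.226%) and 12 downward (0.0968%). The test was limma's moderated test on log2 values at a Benjamini-Hochberg adjusted p below 0.05 over all genes, and such genes are termed called. At an unadjusted p below 0.05 there were 452 genes upward (3.65%) and 430 downward (3.47%). Both SHP-/- arrays lay above both wild-type arrays at 1819 genes (14.7%) and below both at 2649 genes (21.4%).

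**Figure D1:**
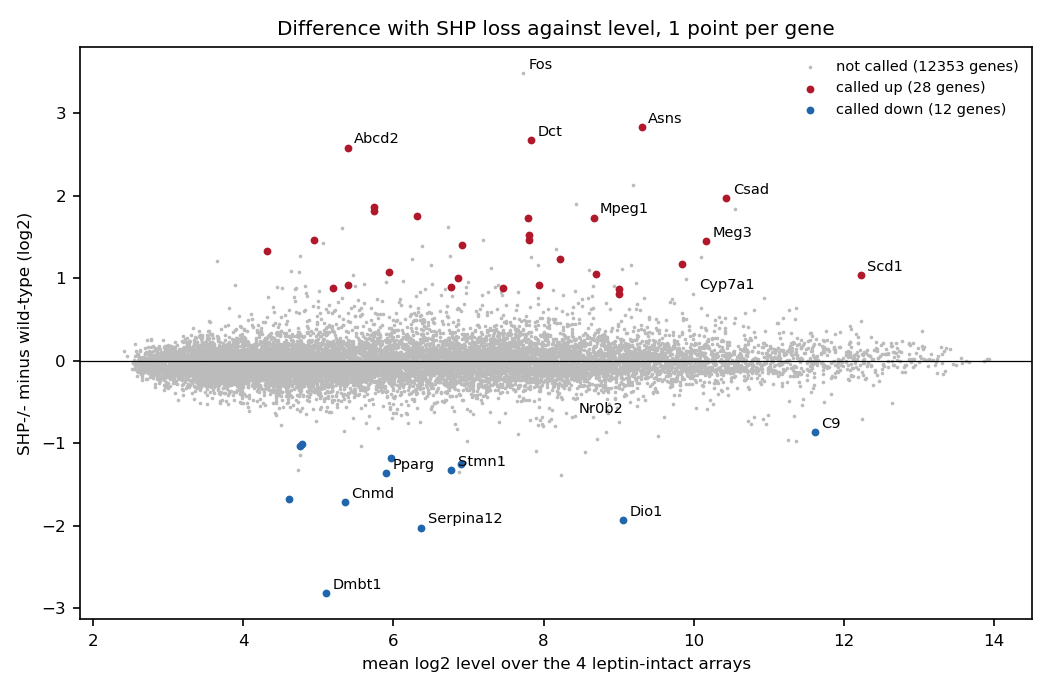
Difference SHP-/- minus wild-type (log2) against the mean log2 level over the 4 leptin-intact arrays, 1 point per gene for 12393 genes, with the 28 genes called up in red and the 12 called down in blue. Called genes lay at differences of at least 0.8068 upward and 0.8635 downward, while Fos, at 3.49, was not called.

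The arrays were liver arrays by their markers. The 15 hepatocyte markers measured summed to 142000 to 147000 on the linear scale of the 4 arrays, with 0 called and a median difference of 0.00. The Y-linked Eif2s3y lay between 6.88 and 7.09 on the log2 scale and Xist between 4.31 and 4.55. Among the leptin-null arrays, OB-/- replicate 1 read 7.41 for Xist and 6.99 for Eif2s3y, while replicate 2 read 4.70 and 6.79. That array entered the estimate of spread on which the calls rest. Across genes the wild-type pair correlated at r = 0.995 and the SHP-/- pair at r = 0.993, against 0.991 to 0.994 between genotypes. The SHP-/- pair was more than 1 log2 unit apart at 96 genes and the wild-type pair at 18. SHP-/- replicate 1 stood apart in immediate-early genes, which are induced within minutes of a stimulus: Fos was 5.45 and 6.50 in wild-type, 11.95 in SHP-/- replicate 1 and 6.98 in replicate 2. For Gapdh the 3′ probe set read higher than the 5′ one by 0.79 and 1.00 in wild-type and by 0.19 and 0.35 in SHP-/-, and for Actb the offsets were 1.89 and 1.87 against 1.25 and 1.35. Such offsets grow as RNA degrades, and the part of RNA quality in the differences below was not tested. The count of called genes was 40 with all arrays, 67 without SHP-/- replicate 1 and 95 without SHP-/- replicate 2, and each of these reduced fits kept 32 of the 40. It was 14 without wild-type replicate 2 and 5 without wild-type replicate 1.

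Nr0b2, the targeted gene, read 8.74 and 8.71 on the wild-type arrays and 7.78 and 8.31 on the SHP-/- arrays. Both knockout arrays were below both wild-type arrays, by 0.68 ± 0.19 (SE, 2 arrays a group), which did not pass limma's test (adjusted p = 0.286). Without SHP-/- replicate 2 the difference was -0.95 and without replicate 1 it was -0.42. Nr0b2 has 1 probe set, and its place relative to the deleted part is not given in the sources used here. The value may therefore not check the knockout. In the leptin-null pair this probe set read 8.01 and 8.01 in OB-/- against 7.11 and 6.66 in OB-/-/SHP-/-. That difference, -1.13 ± 0.19, passed limma's test (adjusted p = 0.0108).

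The stretches upstream of Nr0b2, Asns and Serpina12 are shown. These are the targeted gene, the largest rise among called genes, and a fall called in both leptin backgrounds and with any array left out. Sequences are the 250 bases before the annotated start, from RefSeq on GRCm38.p6, read in the direction of the gene, with matches in capitals. Nr0b2 (chr4:133553126-133553375, + strand) holds CAAGGCCA, an element of LRH-1 and related orphan receptors, at -201 to -194. Asns (chr6:7693210-7693459, - strand) holds TGATGNAA, the shared core of elements bound by ATF4 with C/EBP factors, at -23 to -16. Serpina12 (chr12:104044444-104044693, - strand) holds 0 matches to the motifs searched.
Nr0b2: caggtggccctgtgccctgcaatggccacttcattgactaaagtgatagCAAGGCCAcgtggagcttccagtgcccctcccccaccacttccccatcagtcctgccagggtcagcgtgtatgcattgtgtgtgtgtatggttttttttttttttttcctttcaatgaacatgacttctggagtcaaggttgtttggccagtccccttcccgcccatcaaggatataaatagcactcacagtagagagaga
Asns: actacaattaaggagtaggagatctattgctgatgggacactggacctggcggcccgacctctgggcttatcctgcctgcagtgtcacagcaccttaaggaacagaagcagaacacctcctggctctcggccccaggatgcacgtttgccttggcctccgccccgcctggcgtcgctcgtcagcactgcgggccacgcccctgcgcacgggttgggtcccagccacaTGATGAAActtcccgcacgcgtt
Serpina12: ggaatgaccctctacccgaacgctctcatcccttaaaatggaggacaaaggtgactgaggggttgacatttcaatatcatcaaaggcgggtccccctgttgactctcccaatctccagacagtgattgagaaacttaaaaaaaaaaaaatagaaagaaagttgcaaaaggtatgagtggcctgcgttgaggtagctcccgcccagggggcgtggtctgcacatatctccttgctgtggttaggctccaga

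Motifs were searched on both strands in windows of 300 bases, 250 before and 50 after each start. Of the 40 called genes 31 had windows, 42 in all, among 32851 windows of all genes. CAAGGTCA was in 0 windows of called genes and 1.56% of all windows. CAAGGCCA was in 1 of them, that of Tmem98 in the 50 bases after the start, and in 2.40% of all. TGATGNAAT, the longer composite element, was in 0 and in 0.96% of all. TGATGNAA, contained in TGATGNAAT and added after the data were seen, was in 1, that of Asns, and in 3.97% of all.

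Asparagine synthetase Asns, which makes asparagine from aspartate and is induced when amino acids are short, read 8.11 and 7.67 in wild-type and 10.63 and 10.83 in SHP-/-. Its difference of 2.84 ± 0.38 (adjusted p = 0.00997) was larger than the distance within either pair, and its other probe set was called at 2.93. Csad, the decarboxylase that makes the taurine precursor hypotaurine, read 9.62 and 9.28 against 11.46 and 11.39, a rise of 1.98 ± 0.18 (adjusted p = 7.6e-04). Taurine is the amino acid to which mouse bile acids are mainly conjugated. The call of Csad held without any single array, and that of Asns ended when wild-type replicate 1 or 2 was left out (adjusted p up to 0.190) and with robust moderation of the variance (0.131).

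The pathways of these enzymes contributed no other called gene. Of 16 measured genes of taurine, cysteine and methionine metabolism, Csad alone was called. At an unadjusted p below 0.05, 3 of the 16 were higher, against 3.65% of all genes. The median difference was 0.13 against -0.03 over all genes. Cystathionine gamma-lyase Cth read 12.06 and 11.92 against 12.45 and 12.50 (0.48, adjusted p = 0.388). Bhmt, which remethylates homocysteine, differed by 0.37 (adjusted p = 0.616). Of 31 ATF4 targets and amino acid stress genes, Asns alone was called and the median was 0.00. The stress-induced inhibitor of mTORC1 signalling Ddit4 read 6.00 and 5.26 against 7.17 and 6.56 (1.23, adjusted p = 0.119). Atf3 read 3.97 and 4.25 against 6.52 and 4.26, so that its difference of 1.28 lay in SHP-/- replicate 1. Among 22 chaperones and folding genes of the endoplasmic reticulum 0 were called, and the median was 0.06. At an unadjusted p below 0.05, 4 were higher, against 3.65% of all genes. Creld2 at 0.43 and Herpud1 at 0.45 (adjusted p = 0.344 and 0.700) were among them. The SHP-/- arrays were unlike in this list: the median distance from the wild-type mean was -0.11 on replicate 1, with 11 genes below both wild-type arrays, and 0.30 on replicate 2, with 18 above both.

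**Figure D2:**
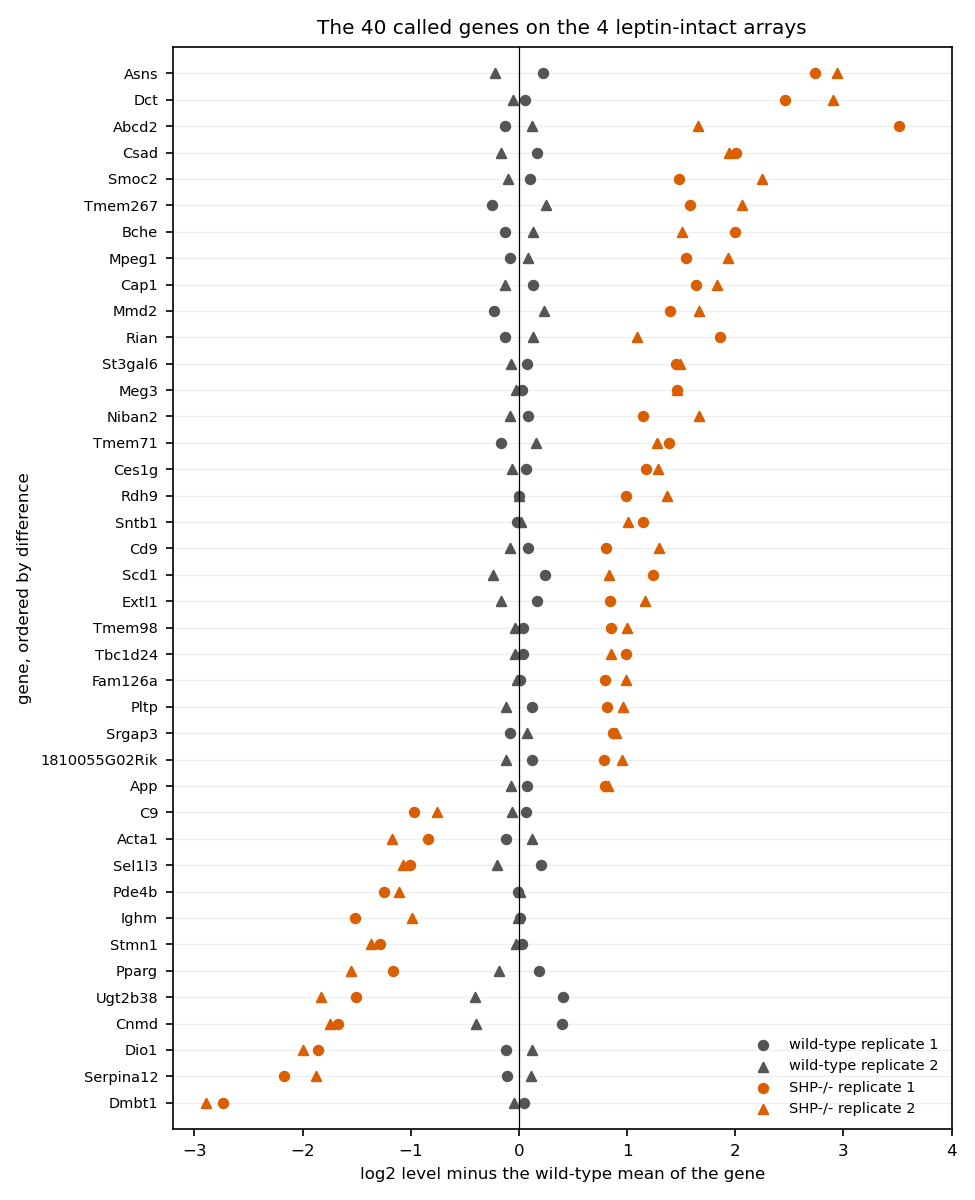
Log2 level minus the gene's wild-type mean on each of the 4 leptin-intact arrays for the 40 called genes, with wild-type replicates in grey and SHP-/- replicates in orange (circles replicate 1, triangles replicate 2). Abcd2 shows the widest gap between SHP-/- arrays, 7.61 against 5.75, and Meg3 one of the narrowest.

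In the lists of lipid genes Abcd2, Scd1 and Pltp rose and Pparg fell. Abcd2, a peroxisomal transporter of very long chain fatty acids, read 3.97 and 4.22 in wild-type and 7.61 and 5.75 in SHP-/- (2.59 ± 0.43, adjusted p = 0.0349). Scd1, the desaturase that makes oleate, read 11.95 and 11.47 against 12.95 and 12.55 (1.04 ± 0.19, adjusted p = 0.0499), and its dimmer probe set rose by 3.53. The phospholipid transfer protein Pltp read 7.14 and 6.90 against 7.83 and 7.98 (0.89 ± 0.15, adjusted p = 0.0383), with its other probe set at 1.21 (adjusted p = 0.146). Ces1g, a carboxylesterase that hydrolyses lipid esters, read 7.68 and 7.54 against 8.79 and 8.89 (1.23 ± 0.17, adjusted p = 0.0105). The retinol dehydrogenase family member Rdh9 read 9.25 and 9.26 against 10.24 and 10.62 (1.18 ± 0.16, adjusted p = 0.0105). Pparg, the receptor of the lipid storage programme, read 6.77 and 6.39 in wild-type and 5.42 and 5.03 in SHP-/-, and fell by 1.36 ± 0.18 on the log2 scale (adjusted p = 0.00942). In each of these 6 genes, as in every called gene, the groups did not overlap. The same arrays chose the genes, so this adds nothing to the calls. Calls of Abcd2, Scd1 and Pltp were lost without any of the wild-type or OB-/- arrays (adjusted p up to 0.500). Those of Scd1 and Pltp were also lost without SHP-/- replicate 1, that of Pltp without SHP-/- replicate 2 and that of Scd1 without either OB-/-/SHP-/- array. Those of Ces1g and Rdh9 ended when wild-type replicate 1 or 2 was left out (up to 0.176) and that of Pparg without wild-type replicate 1 (0.119). In a fit of the 4 leptin-intact arrays alone Abcd2, Scd1 and Pltp were not called (adjusted p = 0.126, 0.149 and 0.0840). The calls of Abcd2 and Scd1 were also lost with quantile normalisation, that of Abcd2 with robust moderation, those of Abcd2 and Pltp when probe sets were averaged, those of Scd1 and Pltp without cross-matching (x_at and s_at) probe sets, and that of Scd1 with the filter on dim genes.

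The wider lipid lists had medians near that of all genes. Of 24 genes of PPAR gamma, lipid droplets and fat uptake Pparg alone was called, and the median was -0.13. At an unadjusted p below 0.05, 2 were higher, against 3.65% of all genes, and 4 lower, against 3.47%. Cd36, a fatty acid receptor and PPAR gamma target, read 7.18 and 6.94 against 6.46 and 6.54 (-0.56, adjusted p = 0.168). The lipoprotein receptor Vldlr, just outside the threshold, read 5.80 and 6.28 against 7.01 and 6.94 (0.93, adjusted p = 0.0588), and the droplet protein Plin5 differed by 0.63 (adjusted p = 0.309). Of 21 fatty acid synthesis genes Scd1 alone was called, with Fasn at 0.80 (adjusted p = 0.463) and a median of 0.06. Of 26 genes of fatty acid oxidation and PPAR alpha Abcd2 alone was called, with the thioesterase Acot4 at 0.66 (adjusted p = 0.327) and a median of 0.03. Of 19 cholesterol genes 0 were called, Fdps, which makes farnesyl diphosphate, was at 0.94 (adjusted p = 0.0654), and the median was 0.11. Of 23 lipoprotein genes Pltp alone was called, the HDL receptor Scarb1 was at 0.52 (adjusted p = 0.388), and the median was 0.06.

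Bile acid synthesis, the process for which SHP is best known, had 0 called genes of 17 and a median of 0.06. At an unadjusted p below 0.05, 2 were higher, against 3.65% of all genes, and 1 lower, against 3.47%. Cyp7a1, which starts the classical pathway, read 10.02 and 9.15 in wild-type and 10.43 and 10.38 in SHP-/- (0.82 ± 0.30, adjusted p = 0.564). Both knockout arrays lay above both wild-type arrays, and the wild-type arrays were about as far apart as the genotypes. Cyp8b1, the 12-alpha-hydroxylase that sets the share of cholic acid, read 11.76 and 11.44 against 11.75 and 11.97 (0.25 ± 0.17, adjusted p = 0.867), with overlap. Akr1d1, a reductase of the steroid ring, differed by 0.69 ± 0.17 (adjusted p = 0.170), and Cyp7b1 of the alternative pathway by -0.41 (adjusted p = 0.700). Of 15 transporters 0 were called, with the bile salt export pump Abcb11 at 0.40 (adjusted p = 0.628), the uptake carriers Slco1a1 and Slco1a4 at -0.58 and -0.55 (adjusted p = 0.393 and 0.463), and a median of 0.07. Of 29 genes for SHP, its partner receptors and corepressors, Pparg alone was called. The xenobiotic receptor Nr1i2 (PXR) read 7.11 and 7.02 against 7.82 and 7.58 (0.63, adjusted p = 0.130), and the coactivator Ppargc1a differed by -0.45 (adjusted p = 0.461). The median of this list was -0.06. Of the 29, 11 lay lower on both SHP-/- arrays, against 21.4% of all genes, and 2 higher, against 14.7%. Nr0b2 itself and Pparg were among the 11.

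Serpina12, Dio1, Ugt2b38 and C9 fell, and Bche rose. Serpina12, which encodes the serpin vaspin, read 7.27 and 7.49 in wild-type and 5.22 and 5.51 in SHP-/- (-2.02 ± 0.16, adjusted p = 3.9e-04), a call that held without any single array. Its other, dimmer probe set differed by -0.40 and was not called. Dio1, which converts thyroxine to the active hormone, read 9.90 and 10.14 against 8.17 and 8.03 (-1.92 ± 0.30, adjusted p = 0.0197). Of 11 genes of thyroid hormone handling and action it alone was called, and the median was -0.02. Ugt2b38, a glucuronosyltransferase higher in male liver, read 5.86 and 5.04 against 3.95 and 3.62 (-1.67 ± 0.25, adjusted p = 0.0191). C9, the last component of the complement pore, read 12.11 and 11.98 against 11.08 and 11.29 (-0.86 ± 0.15, adjusted p = 0.0437). Of 33 complement and coagulation genes C9 alone was called. At an unadjusted p below 0.05, 0 were higher, against 3.65% of all genes, and 1 was lower, against 3.47%. On both SHP-/- arrays 14 lay higher, against 14.7% of all genes, and 2 lower, against 21.4%. The median was 0.11 and the highest difference 0.34. The butyrylcholinesterase Bche, secreted by liver, read 5.31 and 5.57 against 7.44 and 6.95 (1.75 ± 0.25, adjusted p = 0.0132), and its other probe set rose by 2.57. Without any of the wild-type or OB-/- arrays the calls of Dio1 and C9 were lost (adjusted p up to 0.311), as was that of C9 without SHP-/- replicate 1. That of Bche ended when wild-type replicate 1 or 2 was left out (up to 0.158) and that of Ugt2b38 without wild-type replicate 1 (0.140). Dio1 was not called with robust moderation (0.0537), nor were Ugt2b38 and C9 in the 4 leptin-intact arrays alone (0.0577 and 0.0840).

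The lists of sex-biased genes and cytochromes held Ugt2b38 as their only called gene. Of 15 male-biased liver genes Ugt2b38 alone was called, and the median was -0.15. At an unadjusted p below 0.05, 6 were lower, against 3.47% of all genes, and 0 higher, against 3.65%. The steroid dehydrogenase Hsd3b5 read 10.21 and 9.75 against 9.19 and 8.95 (-0.91, adjusted p = 0.0775), and Nudt7, a peroxisomal coenzyme A hydrolase, 11.97 and 11.75 against 11.26 and 10.50 (-0.98, adjusted p = 0.117). Of 12 female-biased genes 0 were called and the median was 0.08. The estrogen sulfotransferase Sult1e1 read 4.38 and 4.31 against 4.73 and 6.83, with nearly all of its difference in SHP-/- replicate 2. Of 14 genes of the growth hormone and IGF axis 0 were called, with Igfbp3 at 0.57 (adjusted p = 0.392) and a median of 0.01. Of 23 cytochromes of families 1 to 3 there were 0 called, with a median of -0.06. Of the 23, 3 were higher at an unadjusted p below 0.05, against 3.65% of all genes, and 7 lower, against 3.47%. Cyp2g1 stood just outside the threshold at -1.14 (adjusted p = 0.0588), Cyp2c37 at -0.76, Cyp2f2 at -0.70 and Cyp2c38 at 1.26 (adjusted p = 0.119, 0.121 and 0.0910).

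Meg3 and Rian are noncoding RNAs of the imprinted Dlk1-Dio3 domain that are expressed from the maternal chromosome. Meg3 read 9.47 and 9.41 in wild-type and 10.90 and 10.90 in SHP-/- (1.46 ± 0.14, adjusted p = 0.00113), and its call held without any single array. Of its 4 further probe sets 3 were called at 1.75, 1.79 and 1.56, and 1 read -0.02. Rian read 6.94 and 7.19 against 8.92 and 8.15 (1.47 ± 0.26, adjusted p = 0.0409). It had 1 further probe set called at 2.20 and 1 dimmer one at -0.11, and its call ended when a wild-type array or SHP-/- replicate 1 was left out (adjusted p up to 0.295). Rian was also not called with quantile normalisation, equal array medians or robust moderation, or in the 4 leptin-intact arrays alone (up to 0.0909). Of 18 imprinted genes measured no others were called, with Sgce at 0.27 and Peg3 at -0.23 (adjusted p = 0.854 and 0.871), and the median was 0.03.

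Mpeg1, the pore-forming protein perforin-2 of macrophages, read 7.72 and 7.88 in wild-type and 9.34 and 9.73 in SHP-/- (1.74 ± 0.18, adjusted p = 0.00173). Of 26 macrophage and Kupffer cell markers Mpeg1 alone was called, 16 were higher at an unadjusted p below 0.05 against 3.65% of all genes, and 21 lay higher on both SHP-/- arrays against 14.7%. The median was 0.59. The complement chain C1qa read 6.82 and 6.65 against 8.12 and 7.60 (adjusted p = 0.0862), and the Kupffer cell receptor Vsig4 6.86 and 6.82 against 8.06 and 7.30 (adjusted p = 0.166). Summed over the list, linear levels were 2350 and 2270 in wild-type and 5050 and 3560 in SHP-/-. SHP-/- replicate 1 exceeded replicate 2 at 23 of the 26, and the median distance from the wild-type mean was 0.92 in replicate 1 and 0.32 in replicate 2. Mpeg1 departed from this order, with its higher value in replicate 2. In whole tissue, more cells of a type and more RNA per cell cannot be told apart.

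Of 7 class II antigen presentation genes 0 were called, while all 7 lay higher on both SHP-/- arrays, against 14.7% of all genes, with a median of 0.59. The median distance from the wild-type mean was 0.90 on SHP-/- replicate 1 and 0.30 on replicate 2. H2-Eb1 read 7.57 and 7.60 against 8.61 and 7.94 (0.69, adjusted p = 0.636). Of 26 interferon-response genes 0 were called, 10 were higher at an unadjusted p below 0.05, against 3.65% of all genes, and the median was 0.30. The protease Usp18 read 6.37 and 6.39 against 6.94 and 7.40 (0.79, adjusted p = 0.0911), and the factor Irf7 6.83 and 6.84 against 7.65 and 7.39 (0.68, adjusted p = 0.154). Of 11 neutrophil markers 0 were called and the median was 0.13. The calprotectin subunit S100a8 read 4.43 and 4.59 against 6.80 and 5.46 (adjusted p = 0.0743). Of 22 acute phase genes 0 were called and the median was 0.21. At an unadjusted p below 0.05, 3 were higher, against 3.65% of all genes, and 1 was lower, against 3.47%. Orm3 read 5.84 and 6.00 against 7.10 and 7.97 (adjusted p = 0.0588), just outside the threshold. Saa3 went the other way, at 7.89 and 8.14 against 6.26 and 7.43 (-1.17, adjusted p = 0.227). On SHP-/- replicate 2, 19 of these 22 lay above both wild-type arrays, and on replicate 1 there were 8, with median distances from the wild-type mean of 0.36 and -0.06.

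Dmbt1, Ighm and Pde4b fell. Dmbt1, a scavenger receptor cysteine-rich protein of mucosal defence, read 6.56 and 6.47 in wild-type and 3.78 and 3.63 in SHP-/- (-2.81 ± 0.19, adjusted p = 1.7e-04), the smallest adjusted p of all genes in this comparison. Its call held without any single array. Ighm, the heavy chain of immunoglobulin M, read 7.53 and 7.51 against 6.01 and 6.53 (-1.25 ± 0.17, adjusted p = 0.0118). Its 10 other probe sets were between -0.13 and -0.71 and none was called. Of 17 lymphocyte markers Ighm alone was called, with Jchain at -0.73 (adjusted p = 0.570) and a median of -0.09, and the summed levels were 569 and 648 against 450 and 487. Pde4b, a cyclic AMP phosphodiesterase of immune and other cells, read 6.55 and 6.56 against 5.30 and 5.44 (-1.18 ± 0.19, adjusted p = 0.0235), with its other probe set at -0.78 (adjusted p = 0.0872). Without either wild-type array the calls of Ighm and Pde4b were lost (adjusted p up to 0.270), and that of Pde4b also without either OB-/- array or SHP-/- replicate 1. That of Mpeg1 was lost without wild-type replicate 1 (0.0668). Ighm was not called with the mean of probe sets (0.520), without x_at and s_at probe sets (0.878) or in the 4 leptin-intact arrays alone (0.0502), nor was Pde4b with quantile normalisation (0.0660).

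Dct, St3gal6, Extl1, Smoc2 and Cap1 rose, and Cnmd, Stmn1 and Acta1 fell. Dct, dopachrome tautomerase of melanin synthesis, read 6.54 and 6.44 in wild-type and 8.95 and 9.39 in SHP-/- (2.68 ± 0.24, adjusted p = 7.6e-04), and its call held without any single array. St3gal6, a sialyltransferase, read 4.28 and 4.13 against 5.66 and 5.69 (1.47 ± 0.19, adjusted p = 0.00821), with its other probe set at 0.72 and not called. Extl1, a glycosyltransferase of heparan sulfate, read 6.52 and 6.19 against 7.20 and 7.52 (1.00 ± 0.17, adjusted p = 0.0383). The secreted matrix protein Smoc2 read 4.92 and 4.71 against 6.29 and 7.05 (1.86 ± 0.26, adjusted p = 0.0130), and its other probe set was called at 1.20. Cnmd, chondromodulin, read 6.61 and 5.82 against 4.54 and 4.46 (-1.71 ± 0.23, adjusted p = 0.00982). Cap1, which binds adenylyl cyclase and actin, read 7.06 and 6.80 against 8.56 and 8.76 (1.73 ± 0.20, adjusted p = 0.00389), with its other probe set called at 2.24. Stathmin, Stmn1, which destabilises microtubules, read 7.46 and 7.41 against 6.15 and 6.06 (-1.33 ± 0.14, adjusted p = 0.00282), while its other probe set differed by 0.01, so the fall rests on 1 of its probe sets. Acta1, the actin of skeletal muscle, read 5.16 and 5.41 against 4.44 and 4.11 (-1.01 ± 0.17, adjusted p = 0.0383). The calls of Cnmd and Stmn1 were lost without wild-type replicate 1 (adjusted p up to 0.0947), and those of St3gal6, Smoc2 and Cap1 without either wild-type array (up to 0.223). Those of Extl1 and Acta1 were lost without any of the wild-type or OB-/- arrays or SHP-/- replicate 2 (up to 0.447), and in the 4 leptin-intact arrays alone (0.0920 and 0.0838). Without x_at and s_at probe sets St3gal6 and Stmn1 were not called (0.263 and 0.996), nor was Stmn1 with the mean of probe sets (0.0934).

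Tmem267, Tmem71, Mmd2, Tmem98, Cd9 and App rose, and Sel1l3 fell. Tmem267 read 4.58 and 5.08 in wild-type and 6.41 and 6.89 in SHP-/-, and Tmem71 3.49 and 3.81 against 5.03 and 4.92. Mmd2, of the progestin and adipoQ receptor family, read 6.81 and 7.28 against 8.44 and 8.71, and its other probe set was called at 1.40. Tmem98 read 7.51 and 7.44 against 8.33 and 8.48. The tetraspanin Cd9 read 8.25 and 8.09 against 8.97 and 9.46. App, the amyloid precursor protein, read 8.68 and 8.53 against 9.40 and 9.43, with 1 further probe set called at 0.82 and 2 dimmer ones at -0.10 and 0.05. Sel1l3 read 5.48 and 5.07 against 4.27 and 4.21. The pairs did not overlap in any of the 7, as in every called gene. Adjusted p lay between 0.00726 for Mmd2 and Tmem71 and 0.0499 for App. The calls of Mmd2, Tmem71 and Sel1l3 were lost without wild-type replicate 1 (up to 0.135), and those of Tmem267 and Tmem98 without either wild-type array (up to 0.181). That of Cd9 was lost without any of the wild-type or OB-/- arrays or SHP-/- replicate 2 (up to 0.358), and that of App without any of the wild-type, OB-/- or SHP-/- arrays (up to 0.455). In the 4 leptin-intact arrays alone Tmem98, Sel1l3, Cd9 and App were not called (0.0502 to 0.0936). App was also not called with the filter on dim genes, the mean of probe sets, the replicate number as a block, or without x_at and s_at probe sets (up to 0.279).

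The last 6 called genes rose. Niban2 read 6.30 and 6.13 in wild-type and 7.36 and 7.88 in SHP-/-, a rise of 1.41. Sntb1, a syntrophin that anchors proteins at the membrane, read 5.39 and 5.43 against 6.55 and 6.41 (1.07), with its other probe set at 0.38 and not called. Tbc1d24, a protein of vesicle traffic, read 4.97 and 4.90 against 5.93 and 5.79 (0.92). Fam126a, a subunit of a phosphatidylinositol kinase complex, read 6.34 and 6.31 against 7.12 and 7.32 (0.89). Srgap3 read 4.67 and 4.83 against 5.62 and 5.64 (0.88), with its other probe set at -0.07 and not called. The unnamed transcript 1810055G02Rik read 8.69 and 8.45 against 9.36 and 9.53 (0.87). Adjusted p lay between 0.00982 for Sntb1 and 0.0409 for Tbc1d24. All 6 calls ended when wild-type replicate 1 or 2 was left out (up to 0.440 over the single arrays), and those of Niban2, Fam126a, Tbc1d24 and 1810055G02Rik also without either OB-/- array. The call of 1810055G02Rik was lost without either SHP-/- array as well, that of Tbc1d24 without replicate 1 and those of Niban2 and Fam126a without replicate 2. Fam126a, Tbc1d24, Srgap3 and 1810055G02Rik were not called in the 4 leptin-intact arrays alone (up to 0.0900), Sntb1 and Srgap3 with the mean of probe sets (0.107 and 0.417), Niban2 and Tbc1d24 with quantile normalisation (0.0569 and 0.0933), and Tbc1d24 with equal array medians (0.0671).

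The remaining lists had few members past the threshold. Of 18 genes of gluconeogenesis and insulin signalling 0 were called, with G6pc at -0.73 (adjusted p = 0.493), where SHP-/- replicate 1 read 9.83 and replicate 2 read 10.88, and Irs2 at -0.61 (adjusted p = 0.393). Their median was -0.00. Of 21 amino acid catabolism and urea cycle genes 0 were called, with Kynu at -0.35 (adjusted p = 0.678) and a median of -0.06. Of 18 clock genes 0 were called, with Nr1d1 at -0.56 (adjusted p = 0.808) and a median of -0.14, made of median distances of 0.06 on SHP-/- replicate 1 and -0.25 on replicate 2. Of 26 cell cycle genes Stmn1 alone was called, with Tyms at -0.40 (adjusted p = 0.453) and a median of 0.02. Of 13 iron genes 0 were called, with the transferrin receptor Tfrc at 8.19 and 8.43 against 7.49 and 7.71 (adjusted p = 0.202) and a median of 0.09. Of 22 glutathione and NRF2 target genes 0 were called, with Gstt3 at 0.48 and Ephx1 at -0.49 (adjusted p = 0.232 and 0.295) and a median of 0.09.

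Immediate-early genes had the highest median of any list, 0.67 over 22 genes. Of these 0 were called and 9 were higher at an unadjusted p below 0.05, against 3.65% of all genes. Their summed linear level was 3750 and 4180 in wild-type, 17800 in SHP-/- replicate 1 and 4320 in replicate 2. Replicate 1 lay above both wild-type arrays at 20 of the 22 genes and replicate 2 at 9, and the median distance from the wild-type mean was 1.17 and -0.05. Egr1 read 8.14 and 8.10 in wild-type and 11.38 and 9.12 in SHP-/- (adjusted p = 0.186). Gadd45b had similar values on both SHP-/- arrays, 6.98 and 7.09 against 6.21 and 6.26 (0.80, adjusted p = 0.0875).

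Markers of other cell types were also read. Of 21 stellate cell and fibroblast markers 0 were called, with the basement membrane collagens Col4a1 at 6.22 and 6.01 against 6.78 and 6.83 (adjusted p = 0.0724) and Col4a2 at 0.71 (adjusted p = 0.0967), and a median of -0.03. Of 23 endothelial markers 0 were called, with Vwf at -0.64 and Lyve1 at 0.77 (adjusted p = 0.531 and 0.551) and a median of 0.04, with median distances of 0.20 on SHP-/- replicate 1 and -0.15 on replicate 2. Of 11 bile duct markers and 17 pancreatic acinar markers 0 were called, with medians of 0.08 and 0.01, Tspan8 at 0.31 (adjusted p = 0.765) and Reg1 at -0.30 (adjusted p = 0.808). Of 15 muscle, fat and blood markers Acta1 alone was called, with 5 lower at an unadjusted p below 0.05, against 3.47% of all genes. The muscle troponin Tnnc2 read 4.34 and 4.42 against 3.78 and 3.77 (adjusted p = 0.128). The median of that list was -0.15 and its summed levels were 977 and 867 in wild-type against 658 and 780 in SHP-/-. The part of such tissue in the fall of Acta1 was not tested.

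**Figure D3:**
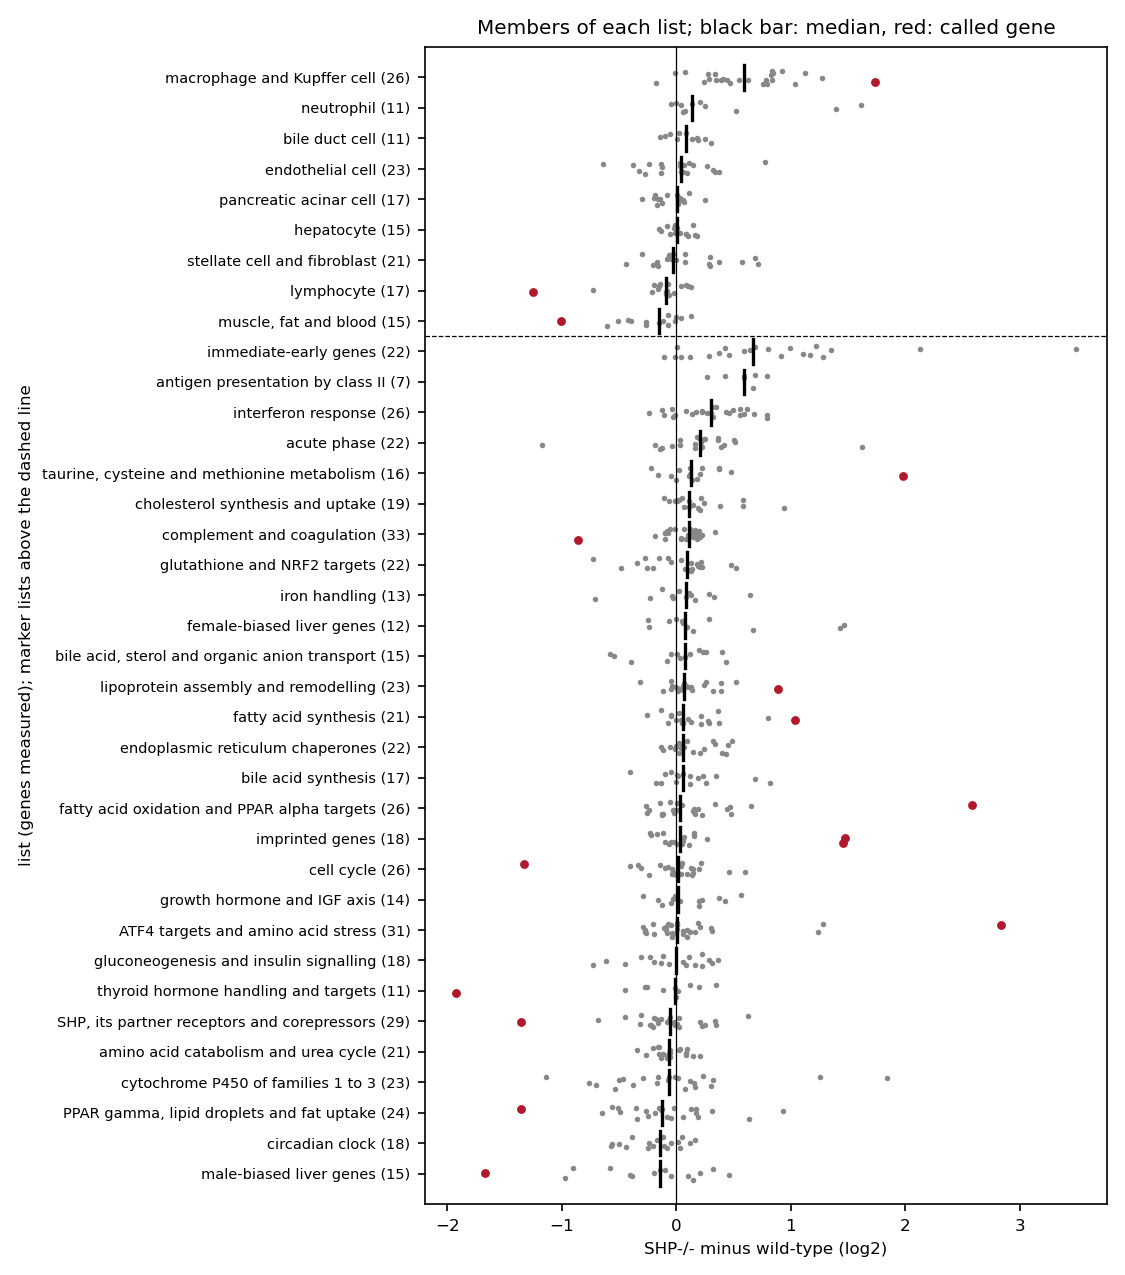
Difference SHP-/- minus wild-type (log2) of each measured member of the 37 lists, 1 point per gene, with a black bar at the list median, called genes in red and the marker lists above the dashed line. Most medians lie near 0, and those of immediate-early, macrophage, class II and interferon genes lie at 0.67, 0.59, 0.59 and 0.30.

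Other probe sets bore on the calls. Of the 40 called genes 17 had 32 further probe sets, and 27 of the 32 had the same sign and 11, in 9 genes, were called. Ighm, with 11 probe sets in all, gave the most of these further ones, each of the same sign. The same arrays chose the genes, so a shared sign is a description. With every probe set tested by itself 100 of 22626 passed (0.442%), 83 upward and 17 downward. They named the 40 genes and 34 further ones, which were chosen after their values were seen. The further genes had 35 called probe sets that were not the gene's brightest, 33 upward and 2 downward, with a median difference of 1.08, while the brightest probe sets of the same genes had a median of 0.18. The nuclear receptor Hnf4a read 6.87 and 6.85 against 8.42 and 8.18 on a dimmer probe set (1.44, adjusted p = 0.0273), while its brightest probe set differed by -0.01. The cholesterol transporter Abca1 differed by 1.92 on a dimmer probe set (adjusted p = 0.0299) and by 0.07 on the brightest, and the translocon subunit Sec61a1 by 1.24 (adjusted p = 0.0163) and -0.09. The 3′ minus 5′ offsets of Gapdh and Actb, lower on the SHP-/- arrays, move with the same groups, and their part in these differences was not tested.

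The neighbours of Nr0b2 on its chromosome were read as well. Of the 40 measured genes nearest to it, 20 on each side in the gene order of RefSeq, 2 were called (5.00%), against 0.323% of all genes and 5 of the 739 measured genes of chromosome 4 (0.677%). Extl1 and Stmn1 stood 13 and 15 places from Nr0b2 on the same side, and the fall of Stmn1 rests on 1 of its probe sets. On the other side, the adjacent gene Nudc, which acts in nuclear migration, read 9.57 and 9.24 against 8.87 and 8.94 (-0.50, adjusted p = 0.372). Sytl1, 5 places away, read 6.34 and 6.06 against 5.24 and 5.54 (-0.81, adjusted p = 0.265), and Wdtc1 read 8.69 and 8.22 against 7.59 and 7.91 (-0.71, adjusted p = 0.207). Of the 40, 1 was higher at an unadjusted p below 0.05, against 3.65% of all genes, and 7 were lower, against 3.47%. In the leptin-null pair Nudc, Sytl1 and Wdtc1 differed by 0.05, -0.21 and 0.18, and Extl1 and Stmn1 by 0.99 and -0.58. Among these named neighbours Extl1 alone was called there.

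The leptin-null arrays gave the same measure in samples that entered neither mean of the leptin-intact difference, although both comparisons shared 1 estimate of spread and 14 of the 40 calls were lost without either OB-/- array. Of the 40 genes, 31 had the same sign in OB-/-/SHP-/- minus OB-/-, 21 of 28 rises and 10 of 12 falls. In that comparison 9 of the 28 were called upward, against 1.26% of all genes, and 2 of the 12 downward, against 0.880%. These 11 are 27.5% of the 40. Csad read 9.10 and 9.16 in OB-/- against 11.30 and 10.80 in OB-/-/SHP-/-. Meg3 read 6.05 and 6.32 against 8.09 and 7.97, Mpeg1 8.94 and 8.78 against 10.36 and 10.75, and Serpina12 7.03 and 7.31 against 5.09 and 4.95. Tmem71, at 3.77 and 3.81 against 5.35 and 4.97, and Extl1, at 6.80 and 6.62 against 7.58 and 7.83, had differences of 1.37 and 0.99 there, beside 1.33 and 1.00 in leptin-intact mice. Without OB-/- replicate 2, 6 of the 40 were called there in the same direction. With each leptin background fitted by itself, the comparisons shared no array and no estimate of spread, although the probe set of each gene was still picked over all 8 arrays. The 4 leptin-intact arrays then called 23 genes, and 19 of these had the same sign in the leptin-null arrays. Of 16 rises 8 were called upward there, against 1.25% of all genes, and of 7 falls 2 were called downward, against 0.799%. These 10 were Asns, Csad, Mpeg1, Cap1, Mmd2, Meg3, Tmem71, Rdh9, Dio1 and Serpina12.

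Other genes had unlike values in the leptin-null pair. Dmbt1 read 4.77 and 4.10 in OB-/- against 3.96 and 3.83 in OB-/-/SHP-/- (-0.54 ± 0.19, adjusted p = 0.257), and Abcd2 7.58 and 7.15 against 7.25 and 7.63 (0.08, adjusted p = 0.976). Pltp read 10.94 and 10.90 against 9.79 and 10.08 and was called downward (-0.99 ± 0.15, adjusted p = 0.00570), the reverse of its call in leptin-intact mice. Pparg read 7.84 and 7.98 against 7.29 and 7.49 (-0.51, adjusted p = 0.231), and Scd1 13.61 and 13.69 against 13.47 and 13.64 (-0.09, adjusted p = 0.921). The difference between the effects of SHP loss was called at 7 of the 40 genes, against 0.549% of all genes. The 40 genes were chosen by one side of that difference, so this share is a description.

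**Figure D4:**
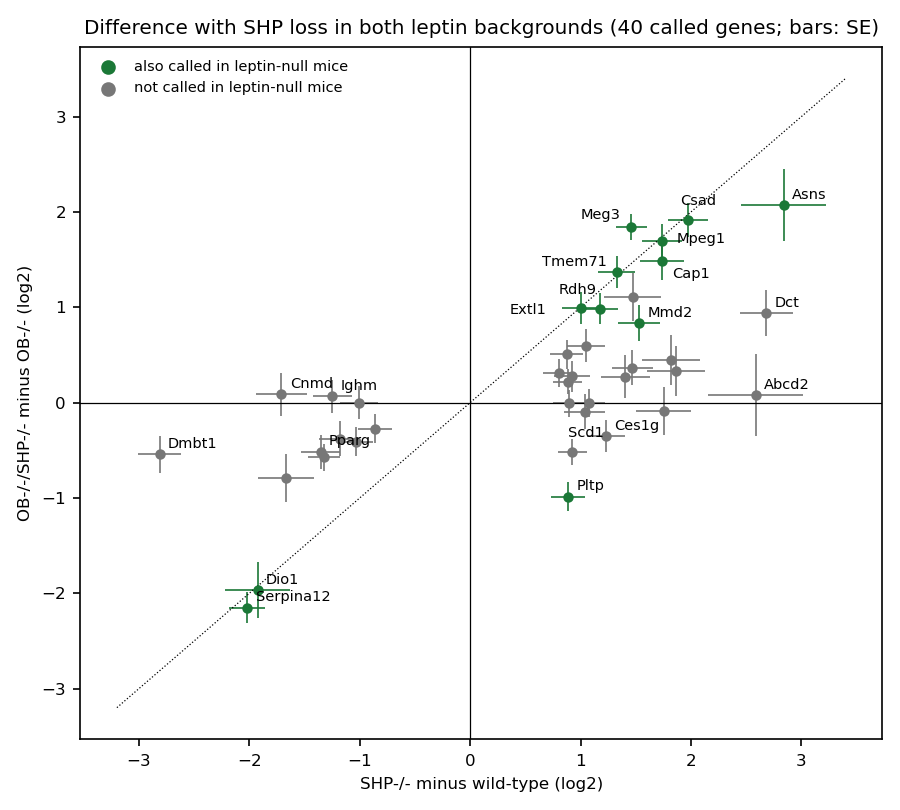
Log2 difference with SHP loss in leptin-null mice (vertical axis) against that in leptin-intact mice (horizontal axis) for the 40 genes called in the latter, with SE bars, genes called in both in green and a dotted line of equality. Csad, Mpeg1, Tmem71, Extl1, Dio1 and Serpina12 lie near that line, Dmbt1 and Abcd2 far from it, and Pltp is green with opposite signs.

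The calls were unequal in how they bore the loss of an array. Csad, Dct, Dmbt1, Meg3 and Serpina12 kept their calls with any 1 of the 8 arrays left out. Without wild-type replicate 1 the other 35 were lost and without wild-type replicate 2 there were 27 lost. Without either SHP-/- array or either OB-/- array the losses were 8 and 14, and without either double-knockout array the loss was 1, that of Scd1. The 4 leptin-intact arrays alone lost 17 of the 40, the mean of probe sets 7, quantile normalisation 6 and robust moderation 4, while 9 of the 40 lay below 2-fold.

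**Figure D5:**
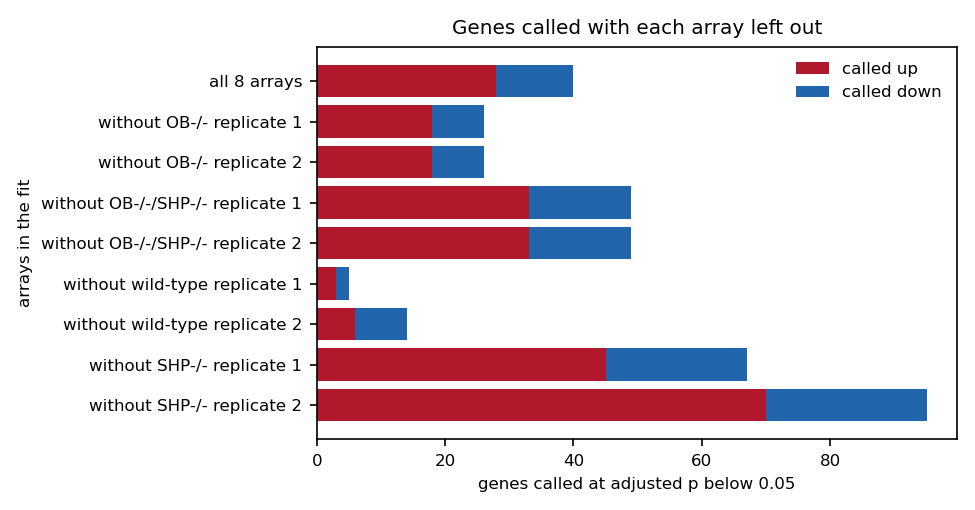
Number of genes called at an adjusted p below 0.05 in SHP-/- minus wild-type with all 8 arrays and with each array left out, split into rises (red) and falls (blue). The count ran from 5 without wild-type replicate 1 to 95 without SHP-/- replicate 2, around 40 with all arrays.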

How the data were processed

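Liver RNA was measured on 8 Affymetrix arrays, 2 per genotype, and genotypes and replicate numbers came from the sample titles. The deposited values were read as log2 levels per probe set, made by the authors, per the submitters' processing notes in R 2.15.0. The sources used here give no background correction, summarisation or log base, and base 2 was taken from the range of values, 2.20 to 14.19. Array medians of 5.45 to 5.56 were read as normalised values and used unchanged. Of 22626 non-control probe sets 20380 named 1 gene, 691 several and 1555 none, by the array annotation, and 20351 gene IDs matched RefSeq. A gene was represented by its brightest probe set.

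With limma 3.58.1 (R 4.3.3) each gene was given 1 mean for each genotype over the 8 arrays, which left 4 residual and 7.16 prior degrees of freedom by empirical Bayes. Tests were two-sided, adjusted by Benjamini and Hochberg over 12393 genes and called below 0.05, and errors are moderated SE. The script was tested on simulated data. The number of arrays limits the precision. The labels do not tie arrays to separate animals: p-values measure only the spread between these samples, and that spread may be technical.

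The genes and 37 lists, 28 of pathways and 9 of cell markers, were chosen with earlier results of these data known, and lists are described by counts and medians, without a test. Named by rule were Nr0b2, every called gene and at most 4 genes from each list, those of smallest adjusted p. Cyp7a1, Cyp8b1, the Gapdh and Actb control probe sets and further probe sets of called genes were also named. Neighbours of Nr0b2, Xist, Eif2s3y, Marco and genes called only with every probe set tested were among those named outside this rule. Alternatives covered normalisation, a filter on dim genes, variance moderation, the choice of probe set, a minimum fold, the arrays fitted, the replicate number as a block and each array left out. A fit without SHP-/- replicate 1, which had high immediate-early genes, and OB-/- replicate 1, which had high Xist, and a fit of each leptin background by itself were added after seeing the data.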

Additional observations from a re-analysis of the deposited data

Results flagged for a closer look

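Of the 40 called genes, 7 also passed limma's interaction test, against 0.549% of all genes. With adjustment over all genes, it asks whether SHP loss had unequal effects with and without leptin. The 40 genes were chosen by one side of this difference, and each value is the effect in leptin-null mice minus that in leptin-intact mice, with its SE.

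Among genes that rose in leptin-intact mice these were Pltp (-1.87 ± 0.21, adjusted p = 0.00128), Ces1g (-1.59 ± 0.24, adjusted p = 0.0118), Tmem98 (-1.45 ± 0.19, adjusted p = 0.00383) and Sntb1 (-1.08 ± 0.20, adjusted p = 0.0431). In leptin-null mice these genes differed by -0.99, -0.35, -0.52 and -0.01, so none rose there, and Pltp was called downward. Among genes that fell in leptin-intact mice these were Dmbt1 (2.27 ± 0.27, adjusted p = 0.00201), Cnmd (1.80 ± 0.32, adjusted p = 0.0338) and Ighm (1.32 ± 0.25, adjusted p = 0.0431). Their leptin-null differences were -0.54, 0.09 and 0.07. Cnmd read 3.45 and 3.54 in OB-/- mice, below both SHP-/- values of leptin-intact mice, 4.54 and 4.46. Dmbt1 read 4.77 and 4.10 in OB-/- mice, against 6.56 and 6.47 in wild-type and 3.78 and 3.63 in SHP-/-. Whether such low OB-/- levels left little room for a fall was not tested.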

How the results depend on the processing

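The 40 calls became 68 with a trend in the variance moderation, 100 with every probe set, and 23 in a fit of the 4 leptin-intact arrays alone, which kept 2 residual degrees of freedom. They numbered 5 to 95 with 1 array left out, where a genotype left with 1 array was assumed to vary like the others, and 38, with 21 kept, without SHP-/- replicate 1 and OB-/- replicate 1 together. Quantile normalisation, equal medians, the filter on dim genes, robust moderation, the mean of probe sets, leaving out x_at and s_at probe sets and a minimum of 2-fold gave 31 to 40. With the replicate number as a block there were 51 calls, 39 of them shared. The deviations of same-numbered arrays correlated at r = -0.107 to 0.196 over the pairs of genotypes, with -0.10 for wild-type with SHP-/-, so the numbers were not taken to pair the arrays.

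Of the 40 genes, 11 passed in the same direction in leptin-null mice, 8 to 13 over the other alternatives and 6 to 13 with 1 array left out, and with each leptin background fitted alone it was 10 of 23 genes. In leptin-intact mice Nr0b2 stayed negative and uncalled in every alternative run. With the mean of probe sets Tspan8 was at -0.023, Ddr1 at -0.025, Slc25a15 at 0.17 and Sort1 at -0.19, each opposite in sign. Stmn1 was at 0.0053 without x_at and s_at probe sets, and Nfil3 at 0.083 without SHP-/- replicate 1 and OB-/- replicate 1. With single arrays left out, Sult2a2 ranged from -0.55 to 0.059 (the latter without wild-type replicate 2), Per3 from -1.22 to 0.22 (without SHP-/- replicate 2) and Nfil3 from -0.97 to 0.083 (without SHP-/- replicate 1). The causes were not tested. Over 170 single-gene values and all alternatives run, 3127 comparisons kept their direction and side of the threshold, 180 lost the threshold, 55 gained it and 9 changed sign. In the fit that gave the 40 calls, no gene that differed by less than 0.8068 on the log2 scale was called.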

Other observations

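Beyond the genes called with the brightest probe set, the 34 genes called only with every probe set tested included Cldn2, Cldn1, Fgfr4, Gpt2, Nudt7 and Bik, chosen after their values were seen. The tight junction gene Cldn2 read 6.82 and 6.89 in wild-type and 7.95 and 8.01 in SHP-/- on a dimmer probe set (1.12 ± 0.13, adjusted p = 0.00591 over all probe sets by limma), and its brightest probe set differed by 0.35. Cldn1 differed by 1.13 and 0.45 on these probe sets. Fgfr4, the hepatocyte receptor of the bile acid hormone FGF15, read 5.68 and 5.59 against 6.37 and 6.50 on a dimmer probe set (0.80 ± 0.13, adjusted p = 0.0340) and differed by 0.45 on the brightest. Gpt2, an alanine transaminase, differed by 0.88 and 0.76 (adjusted p = 0.0263 over all probe sets, and 0.0819 over genes for the brightest). The falls were those of Nudt7, at -0.92 and -0.98, and Bik, a promoter of apoptosis, at -0.92 and -0.49.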
